A study of Mus musculus with 2 samples.

Results

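Among the cells of testes from 24-month-old mice, 236 of 6823 were selected as shallow cells that carry acrosomal transcripts, out of 9594 cells in both libraries. They were chosen by their total of 500 or more counts that stayed under the lowest total of any cell from 2-month-old mice, by 200 or more genes, and by a share of mitochondrially encoded transcripts of at most 25%. The 4 Leydig genes Cyp17a1, Ptgds, Hsd3b6 and Star had to hold less than 0.5% of a cell's counts, and the protamine and transition protein genes Prm1, Prm2, Tnp1 and Tnp2 less than 3%. The 6 acrosomal genes Acrv1, Spaca1, Spaca3, Spaca7, Tex36 and Lyzl6 had to reach 3 counts and to exceed the 6 meiotic genes Sycp1, Sycp2, Sycp3, Syce1, Pou5f2 and Ccna1. The cells were set against deeper cells, those at or above the lowest 2-month total, that passed the same limits once their counts had been drawn down at random to totals of the shallow cells. That gave 737 deeper cells of the 24-month library and 429 of the 2-month library. The median total was 1549.5 counts in the shallow cells, against 1675 in the drawn-down deeper cells of the 24-month library and 1635 in those of the 2-month library.

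The study compared testicular tissue of 24-month-old mice with that of 2-month-old mice by single-cell RNA sequencing on the BD Rhapsody system, which captures polyadenylated RNA on barcoded beads in microwells. There was 1 library per age, and the labels give no strain, no treatment and no number of animals behind a library. The testes were minced and digested with accutase, an enzyme mix that frees single cells. Stroma cells is the cell type given in the labels, but germ cell transcripts mark the cells described here. With 1 library per age no comparison has a replicate check, no p-value is given, and age, library and depth cannot be told apart.

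Spermatids are the haploid germ cells that follow meiosis. They build the acrosome, a secretory cap whose enzymes and membrane proteins serve binding to the egg, and a flagellum, while their chromatin is repacked first with transition proteins and then with protamines. Transcription stops during this repacking, so that many spermatid transcripts are made early, stored with RNA-binding proteins and translated later.

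The 24-month library held 66390904 counts, with totals of 186 to 46895 and a median of 7488 per cell, and 2643 of its cells (38.7%) lay under the lowest 2-month total. The 2-month library held 53413783 counts in 2771 cells, with a median of 16582. The libraries shared 35 cell labels and 36245 gene columns. Of the 2643 shallow cells, 303 had under 500 counts and 8 more under 200 genes, and 700 exceeded the limit on mitochondrially encoded transcripts, which left 1632. Of these, 135 reached the Leydig limit, 231 the protamine limit, 1024 had fewer than 3 acrosomal counts, and 6 had acrosomal counts that did not exceed the meiotic ones. The 236 cells were 14.5% of the 1632 (95% Clopper-Pearson interval 12.8% to 16.3%). All intervals given here cover counting error only.

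The limits cut through continuous values. There were 33 selected cells with exactly 3 acrosomal counts and 27 cells just outside with 2. A protamine and transition protein share of 2% to 3% was held by 47 selected cells, and 23 cells that met the other limits had 3% to 4%. The highest selected total was 3164 counts, and the lowest total of a deeper 24-month cell that passed at full depth was 3216. No cell that met the other limits was lost to the mitochondrial limit.

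The selected cells had totals of 555 to 3164 counts, with a median of 1549.5, and 406 to 2045 genes, with a median of 1127.5. Mitochondrially encoded transcripts took a median of 0.202% of counts. In 11 cells the share was 5% to 15%, in 4 it was 15% to 25%, and in the other 221 it was under 5%. Protamine and transition protein transcripts took a median of 0.332%, with 132 cells under 0.5%, 44 at 0.5% to 1.5% and 60 at 1.5% to 3%.

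The genes behind the choice are given as description. Acrv1, an acrosomal matrix protein gene, stood at 2369 CPM in the selected cells (counts per 1000000 of the group's summed counts), against 1150 CPM in deeper 24-month cells and 1102 CPM in deeper 2-month cells. Spaca1, a membrane protein gene of the acrosome, stood at 1114 CPM in the selected cells, against 1054 and 861 CPM in the deeper 24-month and 2-month cells. Lyzl6, a lysozyme-like gene of sperm, stood at 372 CPM in the selected cells, against 818 and 736 CPM in those deeper cells. The 6 genes were thus not ordered alike: Acrv1 lay above its level in deeper cells and Lyzl6 and Tex36 below theirs. Tnp1 stood at 2972 CPM in the selected cells, against 995 CPM in deeper 24-month cells, and Prm1 at 2790 CPM, against 661 CPM. The median protamine and transition protein share was 0.332% in the selected cells, against 0.0625% in deeper 24-month cells at equal depth. The part of this difference in the results below was not tested.

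The label of the cells is spermatid-like, and spermatid genes that played no part in the choice were present. All 14 spermatid markers outside the rule had counts, and together they held 4543 CPM (95% Poisson interval 4334 to 4760) in the selected cells, against 5564 CPM (5437 to 5694) in deeper 24-month cells and 310 CPM in deeper 24-month cells with 0.5% or more Leydig counts. Deeper 24-month cells in which the meiotic genes were ahead held 2367 CPM of them, most of it from Dkkl1, Zpbp2 and Zpbp with 1135, 702 and 323 CPM. Izumo1, the sperm protein that binds the egg receptor, stood at 508 CPM in the selected cells, against 178 CPM in deeper 24-month cells. Actl7b, an actin-like gene of the spermatid head, stood at 295 CPM in the selected cells, against 801 CPM in deeper 24-month cells. All 9 markers of elongating spermatids had counts as well, with 5385 CPM in the selected cells, against 6857 CPM in deeper 24-month cells.

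The genes that led the selected cells against all other cells of their library were nonetheless others. Of the 10 genes with the highest ratio, 7 were gene models without a symbol, the other 3 were Pth2, P2rx3 and Egr3, and 0 were acrosomal or spermatid markers. The first marker, Izumo1, came at rank 298 with a ratio of 12.1, while Acrv1 had a ratio of 9.06, Spaca1 of 5.02 and Lyzl6 of 2.00. The other cells include deeper cells that passed the same limits, which lowers the ratios of these markers. The median total of the selected cells was 20.7% of that of the library, but the upper limit on totals largely fixed this in advance. The selected cells are called shallow acrosomal cells here, after the transcripts they were chosen on, and the label is not taken as a cell type.

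Of the markers of other cells, spermatocyte markers outside the rule held 1086 CPM in shallow acrosomal cells (11 of 12 with counts), against 848 CPM in deeper 24-month cells and 1192 CPM in deeper 24-month cells in which the meiotic genes were ahead. Most of this sum came from the cohesin gene Smc1b with 585 CPM, against 402 CPM in deeper 24-month cells, and from Msh4 with 218 CPM, against 27.6 CPM, whereas Stag3 with 87.3 CPM, against 198 CPM, and Ccnb1 with 12.8 CPM, against 63.6 CPM, lay the other way. The wider list of 25 meiosis genes outside the rule also lay the other way, with 1779 CPM in shallow acrosomal cells, against 2429 CPM in deeper 24-month cells. Sertoli markers held 193 CPM (9 of 11 with counts, Amh and Rhox5 at 0), against 28.4 CPM in deeper 24-month cells. The 2 most abundant of them, Clu and Cst9, stood at 64.2 and 38.5 CPM in shallow acrosomal cells. They were higher in shallow cells with 3% or more protamine and transition protein counts, at 238 and 367 CPM. Shallow cells with 3 or more meiotic counts, and at least as many as acrosomal, had 239 and 274 CPM. In the 4 shallow acrosomal cells with 15% to 25% mitochondrially encoded transcripts the Sertoli markers reached 8539 CPM, and in the 221 cells under 5% they stood at 75.6 CPM. Spermatogonial markers held 218 CPM (8 of 10 with counts, Stra8 and Crabp1 at 0), against 60.6 CPM in deeper 24-month cells, most of it from Kit with 108 CPM, against 13.0 CPM, and Uchl1 with 48.8 CPM, against 3.07 CPM. Zbtb16 and Sall4 had 1 count each, Dmrt1 and Gfra1 2 each, and Id4 lay the other way with 15.4 CPM, against 19.9 CPM. Deeper cells with 0.5% or more Leydig counts held 328 CPM of these markers, with Kit at 285 CPM. Fibroblast and peritubular markers held 84.7 CPM (7 of 9, Col1a1 and Myh11 at 0), against 12.3 CPM, and endothelial markers 87.3 CPM (5 of 6, Cldn5 at 0), against 41.4 CPM. Macrophage markers held 20.5 CPM (3 of 10), against 11.5 CPM, and 5 Leydig markers outside the rule 33.4 CPM (4 of 5, Insl3 at 0), against 19.9 CPM. The wider list of 10 Leydig genes held 593 CPM, against 211 CPM, most of it from the lipoprotein receptor gene Scarb1 with 508 CPM in shallow acrosomal cells, against 98.9 CPM in deeper 24-month cells and 338 CPM in deeper cells with 0.5% or more Leydig counts. The haemoglobin gene Hba-a1 was at 0 counts in the shallow acrosomal cells and in the deeper 24-month and 2-month cells. Hbb-bs, which has a column in the 24-month table alone, was at 0 counts in the shallow acrosomal and deeper 24-month cells. The part of these other cells in the results below was not tested.

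Gene by gene, the shallow acrosomal cells were far from the deeper 24-month cells that met the same limits at the same depth. Of 5637 genes with 50 or more counts over both groups, 1708 (30.3%) were 1.5-fold or more higher in shallow acrosomal cells and 2485 (44.1%) were 1.5-fold or more lower. Genes of the rule and mitochondrially encoded genes were left out of these counts. A 4-fold difference was reached by 619 genes higher in shallow acrosomal cells and by 418 lower. The median log2 ratio over all genes was -0.35, and with the counts scaled to bring that median to 0 the split was 2072 genes higher and 1988 lower, or 51.0% of the differing genes higher, against 40.7% without that scaling. The same scaling puts the medians of the acrosome, transcription factor, chromatin and apoptosis lists, given below, above 0 instead of under it.

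The comparison with deeper 2-month cells gave similar counts. Of 4577 genes measured, 1426 (31.2%) were 1.5-fold or more higher in shallow acrosomal cells and 2047 (44.7%) lower, with a median log2 ratio of -0.37. Scaled to bring that median to 0, the split was 1746 higher and 1676 lower. Both comparisons share the shallow acrosomal cells, so their counts are not independent. The deeper cells of the 2 ages, by contrast, lay close together: of 5799 genes, 322 (5.55%) were 1.5-fold or more higher in the deeper 24-month cells than in the deeper 2-month cells and 176 (3.04%) lower, and the median log2 ratio was -0.01. Across 5637 genes the log2 levels of the shallow acrosomal cells had a Spearman rho of 0.44 with deeper 24-month cells and 0.35 with deeper 2-month cells, while the deeper 24-month cells had a rho of 0.97 with the deeper 2-month cells. Genes are not independent replicates, and these values are a description.

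Col15a1, which encodes a chain of the basement membrane collagen XV (chromosome 4, 47208161 to 47313167, plus strand, GRCm38), had the highest ratio among genes with a symbol. It stood at 174.5 CPM (68 counts) in shallow acrosomal cells, against 8.44 CPM (11 counts) in deeper 24-month cells, a ratio of 20.7 (95% interval 10.9 to 43.4). At 1000 counts per cell it was found in 13.5% of shallow acrosomal cells (27 of 200), against 0.603% of deeper 24-month cells (4 of 663), and in 0.561% of deeper cells with 0.5% or more Leydig counts. The next genes in order were Tmem151a, the Notch target Hes1, the ATP-gated channel gene P2rx2, Fkbp5, which encodes a co-chaperone of the glucocorticoid receptor, the collagen gene Col9a3, the phosphatase gene Ptp4a3, Susd6, Gdap1, Kcnq1ot1, the polycystin gene Pkd1 and the lipid droplet gene Plin3. Some of these genes are also found in cells of other kinds. In deeper 24-month cells with 3% or more protamine and transition protein counts, Tmem151a stood at 125 CPM, Ptp4a3 at 103 CPM and Susd6 at 94.8 CPM. Col15a1 stood there at 58.4 CPM and Plin3 at 52.2 CPM, whereas Hes1 at 9.22 CPM and Gdap1 at 0.878 CPM were low. Hes1 stood at 108 CPM in shallow acrosomal cells, against 213 CPM in deeper cells with 0.5% or more Leydig counts, and was found at 1000 counts in 7.5% of the shallow acrosomal cells, against 17.6% of those cells. Fkbp5 stood at 118 CPM, against 171 CPM, and was found in 10.0%, against 16.4%, and Plin3 was found in 16.0%, against 9.35%. The ratios of the 11 genes to deeper 24-month cells ran from 19.6 for Tmem151a down to 13.0 for Plin3, and the lowest bound of any of the 12 intervals was 6.94, for Gdap1. Pkd1 had the most counts of the 12, with 321 CPM in shallow acrosomal cells, against 24.5 CPM in deeper 24-month cells. The whole set reads as genes at 108 to 321 CPM in the shallow acrosomal cells, against 6.13 to 24.5 CPM in the deeper 24-month cells.

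At the other end, genes present at a moderate level in deeper cells were all but missing. Dctn6, a dynactin subunit gene (chromosome 8, 34090420 to 34108796, minus strand, GRCm38), had 1 count in shallow acrosomal cells, or 2.57 CPM, against 90 counts, or 69.0 CPM, in deeper 24-month cells, a ratio of 0.037 (0.00093 to 0.21). At 1000 counts per cell it was found in 0 of 200 shallow acrosomal cells, where the exact interval reaches 1.83%, against 5.58% of deeper 24-month cells. The others of the 12 lowest were Mrps11 and Mrps31 of the mitochondrial ribosome, the junctophilin gene Jph4, the noncoding gene Stamos, the kinetochore gene Ska1, the mitochondrial acyltransferase gene Mcat, Ugp2, which makes UDP-glucose, the DNA repair endonuclease gene Apex1, Dynlt1f, Rnf34 and Ccdc174. Each had 1 to 3 counts in shallow acrosomal cells and 49 to 134 counts in deeper 24-month cells. Dynlt1f belongs to a family of near-identical dynein light chain copies among which reads may be split, so its value is uncertain.

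**Figure D1:**
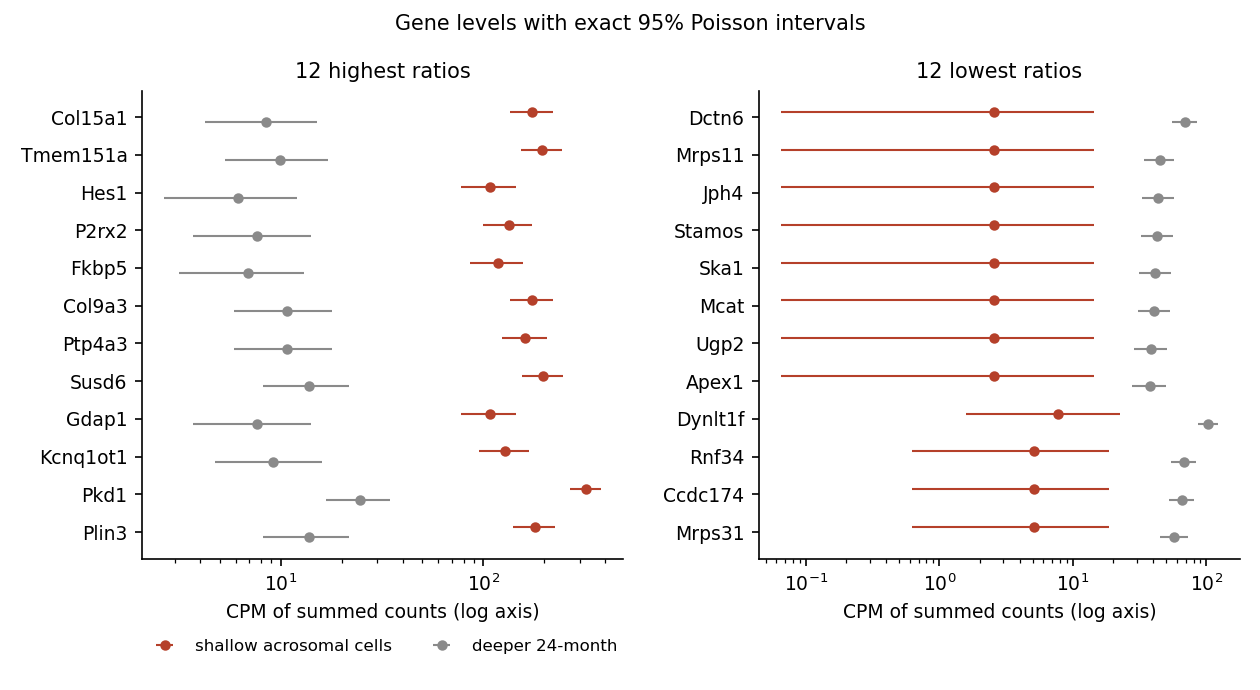
Levels of 12 genes at the top of the ratio order (left) and 12 at its bottom (right), in CPM of summed counts on log axes, with exact 95% Poisson intervals. Red points are the 236 shallow acrosomal cells and grey points the 737 deeper 24-month cells at equal depth. The intervals of the groups do not overlap for any of these genes, but this is largely built into their choice. They were picked as the most extreme ratios among genes whose ratio interval left out equality.

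Against deeper 2-month cells the 6 highest were Col9a3, Cd46, Igsf9, Malt1, P2rx2 and Cd37. Igsf9, an immunoglobulin superfamily gene, had the most counts of them, with 670 CPM in shallow acrosomal cells, against 58.3 CPM in deeper 24-month cells and 12.3 CPM in deeper 2-month cells. Cd46, a complement regulator of the acrosomal membrane in mice, stood at 154 CPM in shallow acrosomal cells, against 16.1 CPM in deeper 24-month cells and 1.37 CPM (1 count) in deeper 2-month cells. The 6 lowest were Dctn6, Nt5c, Lcmt1, Rnf34, Dynlt1f and the translation factor gene Eif3f, with ratios of 0.028 for Dctn6 to 0.076 for Eif3f and 2 or 3 counts in shallow acrosomal cells except for Dctn6.

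The 12 genes with a symbol that held the most counts in shallow acrosomal cells, not adjusted for length, were, with 1 exception, 1.5-fold or more higher than in deeper 24-month cells. Over all genes 30.3% were, but these 12 were picked on their level in the shallow acrosomal cells, which favours high ratios. Fsip2, which encodes a scaffold of the sperm fibrous sheath, came first with 4122 CPM in shallow acrosomal cells, against 710 CPM in deeper 24-month cells and 654 CPM in deeper 2-month cells, a ratio of 5.81 (5.35 to 6.30) to the deeper 24-month cells. At 1000 counts per cell it was found in 84.0% of shallow acrosomal cells, against 46.6% of deeper 24-month cells, with 3.55% in deeper cells with 0.5% or more Leydig counts. Iqca1l stood at 2860 CPM in shallow acrosomal cells, against 528 CPM in deeper 24-month cells. Cfl1, the actin-severing protein cofilin, stood at 3234 CPM, against 980 CPM, and the sperm cytochrome oxidase subunit gene Cox6b2 at 2320 CPM, against 704 CPM.

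Genes of translation initiation were also among the 12. Eif4g1, the scaffold of the cap-binding complex, stood at 2030 CPM in shallow acrosomal cells, against 264 CPM in deeper 24-month cells and 136 CPM in deeper 2-month cells, a ratio of 7.70 (6.77 to 8.76) to the deeper 24-month cells. It was found in 79.5% of shallow acrosomal cells at 1000 counts, against 20.1% of deeper 24-month cells, with 13.3% in deeper cells with 0.5% or more Leydig counts. Eif5b, a factor of ribosome subunit joining, stood at 1622 CPM in shallow acrosomal cells, against 893 CPM in deeper 24-month cells. Tmem191c had a ratio of 4.78, Tmem249 of 5.50 and Rbbp6 of 3.23. Cdiptos, with a ratio of 1.86, and Akap12, an anchoring protein of protein kinase A, completed the set. Akap12 was the exception, at 1715 CPM in shallow acrosomal cells, against 2024 CPM in deeper 24-month cells, a ratio of 0.85 (0.78 to 0.92).

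Malat1, a noncoding RNA retained in nuclei (chromosome 19, 5795690 to 5802672, minus strand, GRCm38), stood at 2033 CPM in shallow acrosomal cells, against 166 CPM in deeper 24-month cells and 90.5 CPM in deeper 2-month cells. The ratio to the deeper 24-month cells was 12.2 (10.5 to 14.3). It was found in 76.0% of shallow acrosomal cells at 1000 counts, against 11.5% of deeper 24-month cells, and in 96.6% of deeper cells with 0.5% or more Leydig counts. The list of nuclear retained RNAs had 3 measured members of 11, and all 3 were 1.5-fold or more higher, where 30.3% of all genes were. The whole list of 11, of which 9 had counts, held 4230 CPM in shallow acrosomal cells, against 829 CPM in deeper 24-month cells. Kcnq1ot1 stood at 128 CPM in shallow acrosomal cells, against 9.20 CPM, and Gm42418, a gene model that overlaps ribosomal RNA, at 1933 CPM, against 637 CPM. Kcnq1ot1 is transcribed antisense to Kcnq1, and since the sources used here do not state how strand was counted, reads of the pair may not be told apart.

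The sum of the nuclear retained list was higher in other shallow cells too than in deeper cells of their kind. The list held 7235 CPM in shallow cells with 3 or more meiotic counts and at least as many meiotic as acrosomal, against 1089 CPM in deeper cells of that kind, 2989 CPM in shallow cells with 3% or more protamine and transition protein counts, against 1557 CPM in their deeper counterparts, and 13370 CPM in shallow cells with 0.5% or more Leydig counts, against 9248 CPM in theirs. Most of the sum came from Gm42418 in the shallow meiotic cells, with 6421 CPM, and in the shallow protamine cells, with 2467 CPM. Malat1 stood at 501 CPM in shallow meiotic cells, against 44.7 CPM in deeper ones. In shallow protamine cells it stood at 378 CPM, against 98.8 CPM in deeper ones. In shallow cells with 0.5% or more Leydig counts it stood at 7523 CPM, against 5078 CPM in deeper ones. The groups differed in mitochondrially encoded share, with medians of 0.202% in the shallow acrosomal cells, against 19.96% in the shallow meiotic cells and 0.0810% in the shallow protamine cells. Within the shallow acrosomal cells Malat1 stood at 2117 CPM where the mitochondrially encoded share was under 5%, at 575 CPM where it was 5% to 15%, and at 0 counts in the 4 cells above 15%.

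Transcripts of the translation machinery and of respiration were the lowest groups, read beside all genes, of which 44.1% were lower and 30.3% higher. Of 48 measured genes of cytosolic ribosomal proteins, 43 were 1.5-fold or more lower in shallow acrosomal cells and 1 was higher, with a median log2 ratio of -1.47. They held 3558 CPM in sum in shallow acrosomal cells (95% interval 3373 to 3750), against 10431 CPM in deeper 24-month cells and 11450 CPM in deeper 2-month cells. Rpl10l, the retrogene that stands in for X-linked Rpl10 in germ cells, stood at 77.0 CPM in shallow acrosomal cells, against 457 CPM in deeper 24-month cells, and Rps20 at 264 CPM, against 737 CPM. Rpl7, the exception, had a log2 ratio of 0.59. Ribosomal protein genes have many processed copies, so reads of single members may be split.

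Of 29 measured nuclear-encoded genes of the respiratory chain, 28 were lower and 0 higher, with a median log2 ratio of -1.57. They summed to 2433 CPM in shallow acrosomal cells, against 6188 CPM in deeper 24-month cells. Atp5d, a subunit of ATP synthase, stood at 15.4 CPM in shallow acrosomal cells, against 93.6 CPM in deeper 24-month cells, and Ndufb8 of complex I at 41.1 CPM, against 179 CPM. Of 23 measured proteasome and ubiquitin genes 15 were lower and 1 was higher, with a median of -1.10. Psma4 had a log2 ratio of -2.41, and Uba1, the ubiquitin-activating enzyme, of 0.84. Of 17 measured chaperones 9 were lower and 2 higher, with a median of -0.98, where 44.1% of all genes were lower and 30.3% higher, and the 2 higher ones, Calr3 and Pdilt, are testis-specific chaperones of the endoplasmic reticulum. These medians stand beside -0.35 over all genes.

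Proteins that store and translate spermatid messages were low as transcripts, read beside all genes, of which 44.1% were lower and 30.3% higher. Of 16 measured genes of RNA storage and translation control 10 were lower in shallow acrosomal cells and 2 higher, with a median log2 ratio of -1.46, and their sum was 7054 CPM in shallow acrosomal cells, against 20889 CPM in deeper 24-month cells. Ybx2, the germ cell Y-box protein that holds messages in store, stood at 1353 CPM in shallow acrosomal cells, against 3984 CPM in deeper 24-month cells. Ybx3 stood at 1055 CPM, against 3915 CPM, and Pabpc2, a poly(A)-binding protein of the testis, at 257 CPM, against 1167 CPM. The 2 higher ones were Piwil1, the protein partner of pachytene piRNAs, with a log2 ratio of 1.58, and the helicase gene Tdrd9 with 1.55.

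The energy enzymes of sperm were split in the same way, where 44.1% of all genes were lower and 30.3% higher. Of 19 measured isozyme genes 14 were lower and 3 higher, with a median of -1.10. Ldhc, the lactate dehydrogenase of germ cells, stood at 1212 CPM in shallow acrosomal cells, against 3150 CPM in deeper 24-month cells. Gpi1, which isomerizes glucose 6-phosphate, stood at 683 CPM, against 69.8 CPM, a ratio of 9.78 (7.68 to 12.6) that was the furthest from equality in the list. In cells with 3% or more protamine and transition protein counts, Gpi1 stood at 779 CPM in shallow and 646 CPM in deeper ones. Of 15 testis kinases and phosphatase partners 9 were lower and 4 higher, with a median of -1.38. Tssk1 and Tssk2, kinases specific to spermatids, had log2 ratios of -1.52 and -1.50, while Tssk5, Tssk6 and Tsks, a substrate of these kinases, had 1.87, 1.31 and 1.41.

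Structural genes of the sperm were mixed, and their counts are read beside all genes, of which 30.3% were higher and 44.1% lower. Of 33 acrosome and egg-binding genes outside the rule 6 were higher in shallow acrosomal cells and 14 lower, a lower share near that of all genes, with a median log2 ratio of -0.21. Spaca6, needed for fusion with the egg, stood at 911 CPM in shallow acrosomal cells, against 196 CPM in deeper 24-month cells, a ratio of 4.66 (3.96 to 5.49). Adam3, a surface protein of sperm that bind the egg coat, stood at 295 CPM, against 1100 CPM, a ratio of 0.27 (0.22 to 0.32). Dkkl1 differed little, at 1034 CPM in shallow acrosomal cells, against 983 CPM in deeper 24-month cells.

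Of 34 tail genes 7 were higher and 15 lower, with a median of -0.49, and the 15 are the share found over all genes (44.1%). The higher ones included Fsip2, Cfap65 and the axonemal dynein heavy chain Dnah8, with log2 ratios of 2.54, 1.32 and 1.22. The lower ones included Tekt1, Tekt3, Tekt4 and Tekt2, tektins of the flagellar microtubules, with -2.19, -1.70, -1.41 and -1.07. Of 14 ion channel genes 2 were higher and 4 lower, with a median of 0.13. Among them Catsper4, a pore subunit of the sperm calcium channel, had a log2 ratio of 1.32 and Catsperz of -1.66. Of 17 genes of the manchette and of intraflagellar transport 2 were higher and 9 lower, with a median of -0.66, beside 44.1% lower over all genes, with Hook1 at 1083 CPM in shallow acrosomal cells, against 358 CPM, and Meig1 at 862 CPM, against 2834 CPM.

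Regulators of the spermatid program were mixed too, and in none of the 3 lists that follow did the lower genes exceed the 44.1% of all genes. Of 13 transcription factor genes 2 were higher and 5 lower, with a median of -0.24. Tbpl1, a TATA-binding protein relative needed for spermatid transcription, stood at 87.3 CPM in shallow acrosomal cells, against 569 CPM in deeper 24-month cells, a ratio of 0.15 (0.10 to 0.22), and Klf17 had a log2 ratio of 1.92. Of 13 chromatin genes 1 was higher and 5 lower, with a median of -0.25. The higher one, Chd5, a remodeller that acts when histones are replaced, stood at 1422 CPM, against 387 CPM, while Phf7, a histone ubiquitin ligase of spermatids, stood at 603 CPM, against 2439 CPM. Of 19 transcripts of elongating spermatids 6 were higher and 7 lower, with a median of -0.39, with Tex37 at a log2 ratio of 1.97, Spem1 at 1.59 and Ubb at -1.91.

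Genes of meiosis outside the rule had 10 measured members, of which 1 was higher and 4 lower, with a median of 0.03. Both counts lay under the shares over all genes, of which 30.3% were higher and 44.1% lower. Msh4, which acts at crossovers, stood at 218 CPM in shallow acrosomal cells, against 27.6 CPM, and Ccnb1, the mitotic cyclin, at 12.8 CPM, against 63.6 CPM. Of 5 measured apoptosis genes 1 was higher, Bcl2l11 with 162 CPM, against 49.8 CPM, and 1 lower, Bad with 15.4 CPM, against 46.8 CPM. Of 4 measured dissociation and stress genes 2 were higher, Jund, with 323 CPM in shallow acrosomal cells, and Hsph1, and 1 was lower, Dnajb1. In cells with 3% or more protamine and transition protein counts, Bcl2l11 stood at 206 CPM in shallow and 207 CPM in deeper ones. Jund stood at 429 CPM in both. In all, of 16 lists with 5 or more measured members, 7 had a median at least 1.5-fold under that of all genes and 0 had one at least 1.5-fold above. The 0 was not stable, since with another seed of the draw 1 list lay above, and 1 to 5 did in 8 of 12 alternatives.

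**Figure D2:**
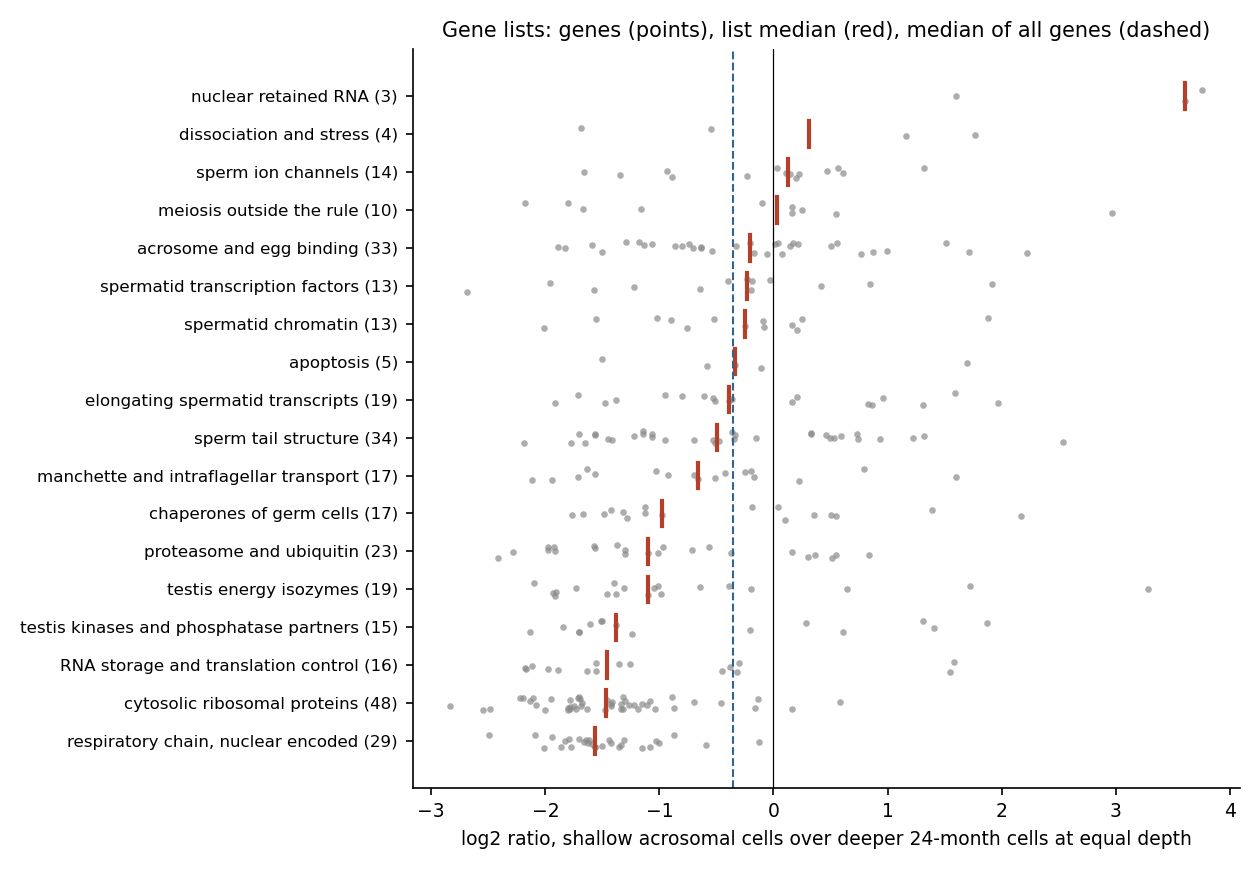
Log2 ratio of shallow acrosomal cells over deeper 24-month cells at equal depth for each measured gene of the lists with 3 or more measured members, whose number is in brackets. Red bars are list medians, the dashed line is the median of all 5637 genes at -0.35, and the ribosomal protein, respiratory chain and RNA storage lists lie furthest to the left.

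The 619 genes that were 4-fold or more higher were followed in every cell, as a description of how uniform the shallow acrosomal cells were, since the genes were chosen on these cells. They held 19.8% of the counts of shallow acrosomal cells, against 3.05% of those of deeper 24-month cells and 2.21% of those of deeper 2-month cells. By cell the share ran from 2.53% to 35.5% in shallow acrosomal cells, with a median of 21.4%, against a median of 2.34% in deeper 24-month cells. Of the 619 genes, 154 (24.9%) were gene models without a symbol, against 15.6% of all measured genes.

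The share followed depth within the 24-month library, though a fall from shallow to deeper cells is built into the choice of these genes. A share of 10% or more was found in 31 of 36 cells with 500 to 1000 counts, in 124 of 137 with 1000 to 2000, and in 52 of 63 with more counts within the shallow range. Above that range it was found in 19 of 28 deeper cells under 5000 counts, in 10 of 117 with 5000 to 10000, and in 0 of 534 with 10000 to 20000 and 0 of 220 above. In the 2-month library 1 of 555 cells that passed the limits at full depth reached 10%, and that cell was among the 4 with 5000 to 10000 counts. Cells of this profile were thus not limited to the depth range of the rule.

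**Figure D3:**
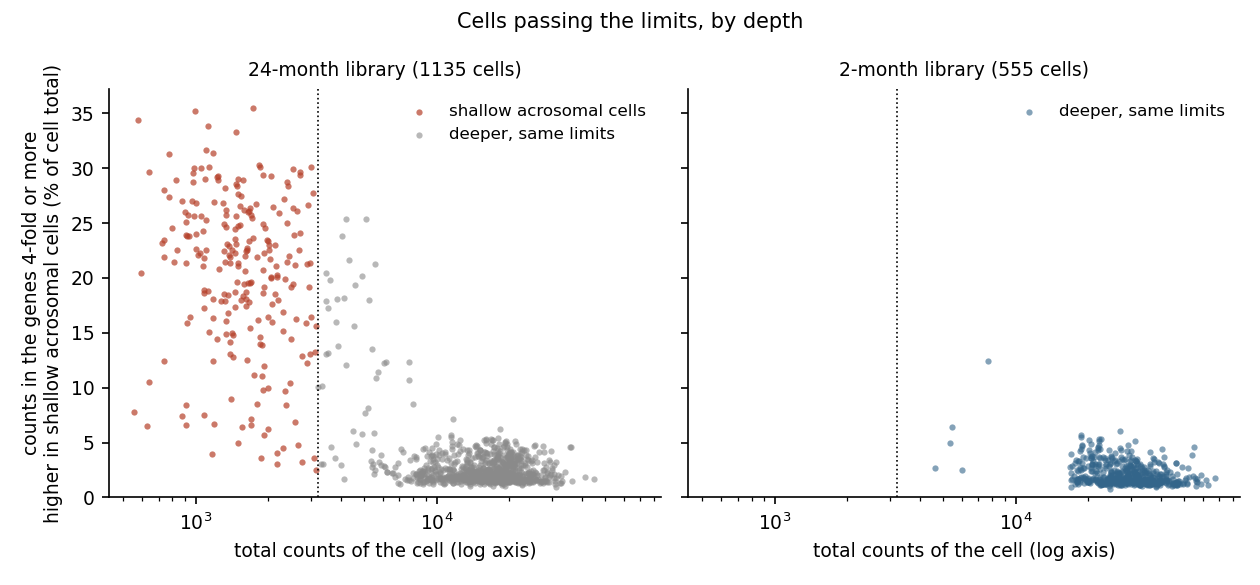
Each point is a cell that passed the limits, with its total counts on a log axis and the share of its counts in the 619 genes that were 4-fold or more higher in shallow acrosomal cells. A fall of the share across the dotted line in the 24-month library is built into that choice of genes. The dotted line marks the lowest 2-month total, and high shares thin out between the line and 10000 counts in the 24-month library (left) and are nearly missing in the 2-month library (right).

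Other shallow cells carried these genes to a smaller extent. In shallow cells with 3% or more protamine and transition protein counts the 619 genes held 8.34% of counts, against 4.42% in deeper cells of that kind, and the middle 50% of these shallow cells ran from 3.12% to 14.8%. In shallow cells with 3 or more meiotic counts, and at least as many as acrosomal, they held 3.899%, against 1.46% in deeper ones, and in shallow cells with 0.5% or more Leydig counts 3.11%, against 2.78%. A further 681 shallow cells had fewer than 3 acrosomal and fewer than 3 meiotic counts, and the 619 genes held 5.32% of their counts. By cell the median there was 3.45% and the highest share 37.5%, against a highest share of 35.5% in shallow acrosomal cells. The summed profile of the shallow acrosomal cells was most like that of the shallow protamine cells, with a Spearman rho of 0.63 across 5637 genes, and next that of the deeper protamine cells, with 0.51. With the shallow cells under 3 acrosomal and 3 meiotic counts the rho was 0.32, with shallow meiotic cells 0.11 and with deeper meiotic cells -0.06.

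The shallow acrosomal and shallow protamine cells differed in several leading genes and were close in others. Iqca1l stood at 2860 CPM in shallow acrosomal cells, against 123 CPM in shallow protamine cells, Tmem249 at 1468 CPM, against 77.7 CPM, Gdap1 at 108 CPM, against 2.68 CPM, and Fsip2 at 4122 CPM, against 158 CPM. Col15a1, at 175 CPM in shallow acrosomal cells, against 271 CPM, and Tmem151a, at 195 CPM, against 354 CPM, lay the other way. Plin3 was close, at 180 CPM in shallow acrosomal cells, against 185 CPM in shallow protamine cells, as was Ptp4a3, at 162 CPM, against 150 CPM. Some genes given above as higher than in deeper 24-month cells were also high in deeper protamine cells, with Hook1 at 913 CPM, Tsks at 1077 CPM and Tex37 at 1477 CPM. Others were low there, with Fsip2 at 79.5 CPM and Iqca1l at 107 CPM.

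**Figure D4:**
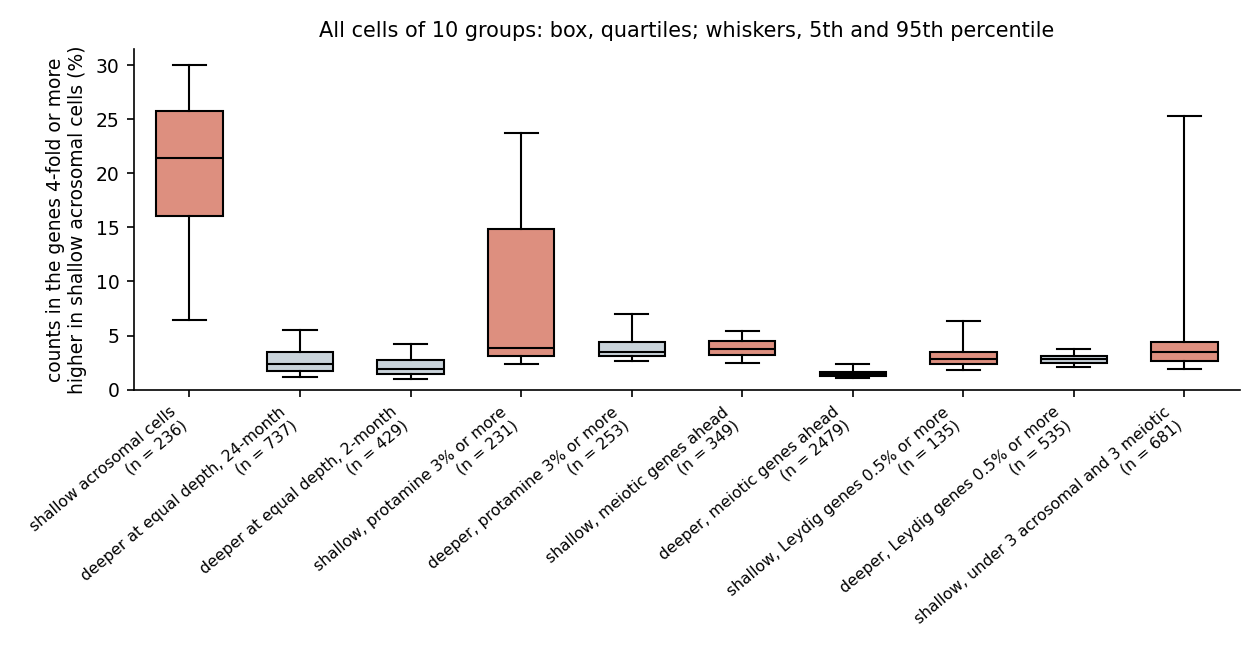
Share of a cell's counts in the 619 genes that were 4-fold or more higher in shallow acrosomal cells, for the shallow (red) and deeper (grey) cells of 10 groups. Boxes show quartiles and whiskers the 5th and 95th percentiles over cells, and the shallow acrosomal cells, from which the genes were chosen, lie highest, followed by the upper part of the shallow protamine cells.

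The number of genes per cell was close at equal depth. At 1000 counts the 200 shallow acrosomal cells that reached this total had a median of 792 genes, with the middle 50% from 776 to 806, against 813 in 663 deeper 24-month cells, with the middle 50% from 803 to 822, and 810 in 377 deeper 2-month cells. There were 36 shallow acrosomal cells, 74 deeper 24-month and 52 deeper 2-month cells below 1000 counts, which were left out. Before this thinning the medians were 1127.5 genes in shallow acrosomal cells, against 1240 and 1206 genes in the 24-month and 2-month deeper cells at equal depth.

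Within the shallow acrosomal cells, ribosomal protein transcripts stood at 3283 CPM at 500 to 1000 counts, at 3137 CPM at 1000 to 2000, and at 4152 CPM above. By mitochondrially encoded share they stood at 3430 CPM under 5%, 4957 CPM at 5% to 15%, and 8725 CPM in the 4 cells above 15%. The acrosome and egg-binding list stood at 11729 CPM, 8405 CPM and 4455 CPM in the same order, and the tail list at 17266, 17960 and 14851 CPM. The upper ranges hold 11 and 4 of the 236 cells, and the 4 cells are those with Sertoli markers at 8539 CPM, whose part in these values was not tested. By protamine and transition protein share this list stood at 12294 CPM under 0.5%, at 11798 CPM at 0.5% to 1.5%, and at 9836 CPM at 1.5% to 3%.

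The direction of a gene went with the length of its transcript. Annotation in GENCODE M21 (GRCm38) was found for 99.1% of the 5637 genes, and these were divided into 5 bins of equal size. In the bin of shortest transcripts, 78 to 1359 bases, 23.0% of genes were 1.5-fold or more higher in shallow acrosomal cells and 54.3% lower, with a median log2 ratio of -0.72. In the bin of longest transcripts, 4879 bases and up, 42.4% were higher and 26.9% lower, with a median of 0.26. The length of the gene on the genome gave the same order, with medians of -0.79, -0.59, -0.41, -0.29 and 0.14 over the 5 bins, short to long. GC content of the transcript gave a narrower range, with medians of -0.26 in the lowest bin and -0.50 in the highest. Length and the gene groups above overlap, since ribosomal protein and respiratory chain transcripts are short, and the part of each was not tested.

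**Figure D5:**
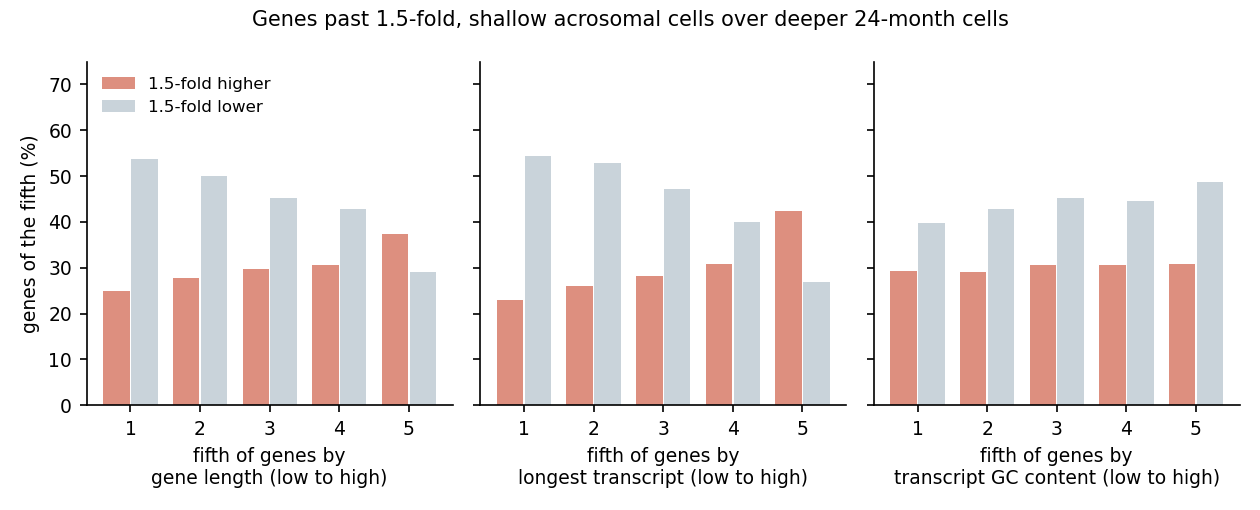
Share of genes 1.5-fold or more higher (red) and lower (grey) in shallow acrosomal cells than in deeper 24-month cells, in 5 bins by gene length, by the longest transcript and by its GC content, low to high. The shares cross between the fourth bin and the last for both lengths, and in every bin of GC content the lower genes outnumber the higher ones.

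Long noncoding genes lay above protein-coding ones and X-linked genes above those of the autosomes. Processed pseudogenes lay under the protein-coding genes, with a median log2 ratio of -0.84 over 38 genes. The 522 long noncoding genes had a median log2 ratio of 0.15, against -0.40 for 4950 protein-coding genes. The 99 measured genes of the X chromosome, which is silenced during meiosis in males, had a median of 0.33, with 44 of them (44.4%) 1.5-fold or more higher, while the medians of the 19 autosomes ran from -0.75 to -0.03. X-linked genes took 1.34% of counts in shallow acrosomal cells (1.30% to 1.37%), against 1.03% in deeper 24-month cells (1.01% to 1.05%) and 0.978% in deeper 2-month cells. Their share was 1.67% in shallow and 1.65% in deeper protamine cells, and 0.613% in shallow and 0.0886% in deeper meiotic cells.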

How the data were processed

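The authors deposited 1 table of counts per library, cells by genes, as raw whole numbers. The header of the 24-month table names the BD Rhapsody pipeline 1.7.1 and STAR 2.5.2b, whereas Cell Ranger 2.11 and mm10 (GRCm38) are given in the submitters' processing notes, and strand handling is not given in the sources used here. Groups were set by the age label, with 1 library each, so no test was run.

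Counts were summed over cells of a group and given as CPM, computed with Python 3.11.15, numpy 2.4.6, scipy 1.17.1 and pandas 2.3.3. Every deeper cell was thinned, without replacement, to a total drawn from the shallow acrosomal cells before the limits were applied to it. Per-cell measures used 1000 counts per cell. Ratios were set between the groups' CPM, and a gene differed when its ratio was 1.5-fold or more, on log2 values with a pseudocount of 0.5 count, among genes with 50 or more counts over both groups. Intervals are exact 95% Poisson, conditional binomial and Clopper-Pearson intervals, and cells of 1 library are not replicates. Thinning and ratios were tested on simulated data.

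Named genes were the 12 highest and 12 lowest ratios to deeper 24-month cells whose interval left out 1, the 6 highest and 6 lowest to deeper 2-month cells, and the 12 with most counts. Genes of the rule, ribosomal protein genes, mitochondrially encoded genes and models without a symbol were left out, and list genes were the furthest and most abundant of each list, with others chosen after their values were seen. Doublets were kept, and Scrublet (scanpy 1.11.5) was an alternative that called 1.89% of 6520 cells in the 24-month library and 1.41% of 2771 in the 2-month library. The selected cells and the gene lists were chosen with earlier results of these data known. The groups of other shallow cells, the 4-fold genes, depth bins, transcript features and X-linked share were added after the data were seen.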

Additional observations from a re-analysis of the deposited data

Results flagged for a closer look

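The 6 acrosomal genes were also found in the 303 cells of the 24-month library with under 500 counts, which no comparison uses. They stood at 180 CPM there (21 of 116473 counts, 95% Poisson interval 112 to 276 CPM). This is above the 25.8 CPM that a limit of 3 counts allows, which is no measure of background. In shallow meiotic cells Acrv1, Spaca1, Spaca3, Spaca7, Tex36 and Lyzl6 stood at 59.7, 26.3, 31.0, 19.1, 21.5 and 31.0 CPM. In shallow cells under 3 acrosomal and 3 meiotic counts they stood at 74.0, 38.3, 34.4, 10.2, 16.6 and 15.3 CPM. Deeper cells that reached the Leydig limit held 93.9 CPM of them in sum. The 180 CPM is thus not set apart from levels in shallow cells of other kinds. Of these 303 cells, 2 met the acrosomal condition, with 3 or more acrosomal counts that exceeded the meiotic ones. The median share of mitochondrially encoded transcripts in the 303 cells was 27.0%.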

How the results depend on the processing

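No paired analysis was possible because there is 1 library per age. Depth, library and age cannot be told apart, and genes with few counts have wide intervals. With the limits applied at full depth and no thinning, 8738 genes differed by 1.5-fold or more from deeper 24-month cells (4257 higher, 4481 lower), and 9187 from deeper 2-month cells (4379 higher, 4808 lower). With a minimum of 100 counts, 2736 genes differed from deeper 24-month cells, 982 of them higher, and 2105 from deeper 2-month cells (749 higher, 1356 lower). With no minimum beyond 1 count, 14821 differed from deeper 24-month cells (9875 higher, 4946 lower), and against deeper 2-month cells 9639 were higher and 7471 lower, so that higher genes outnumbered lower ones in both. More genes are tested in the first and last of these settings and fewer in the other. A protamine limit of 1% left 154 cells. Thinned to 2000 counts, the median number of genes was -1.78% relative to deeper 24-month cells, against -2.58% at 1000 counts. Over 12 alternatives, of which 1, deeper cells of 5000 or more counts, was chosen after seeing the data, 55 other values of the counts and gene numbers stayed close, 16 moved and are given above, and of 191 list medians relative to all genes 183 stayed close, 8 moved and 0 reversed. Lists lying 1.5-fold or more under all genes numbered 6 to 10, and those lying as far above numbered 0 to 5, with 1 or more in 8 of the 12 alternatives.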
